A study of Mus musculus with 8 samples.

Results

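The 8 subcutaneous fat libraries of the series were divided by the reads of Lpl, the gene of lipoprotein lipase. The 4 libraries with at least 18000 raw Lpl reads (called Lpl-high here) were compared with the 4 that had fewer (Lpl-low), so that all 8 of the 8 libraries belong to the comparison. Each group held 2 libraries labelled WT and 2 labelled KO: WT1, WT3, KO2 and KO4 were Lpl-high, and WT2, WT4, KO1 and KO3 were Lpl-low. The division was made after the counts were known and is not one of the study's groups.

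The series asked what is altered in subcutaneous adipose tissue when protein kinase D1 is removed from adipocytes. WT stands for Pkd1(flox/flox), the floxed mice that served as controls, and KO for Pkd1adipo delta/delta, in which the gene was deleted in adipocytes. Pkd1 is the study's name for the kinase gene Prkd1. The strain of all 8 animals was C57BL/6J (back-crossed 4x), each library came from its own mouse. The driver of the deletion, the diet, the age and the sex have no label in the sources used here. Poly(A) RNA was sequenced from whole tissue, so fewer cells of a type and less RNA per cell cannot be told apart in any value below.

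Lipoprotein lipase is made by adipocytes, secreted, and carried to the inner face of capillaries, where it splits the triglycerides of circulating lipoproteins so that fatty acids can enter the fat cell. Its transcript is abundant in white fat, and its activity there follows feeding, insulin and the size of the fat depot. Leptin, the product of Lep, is the adipocyte hormone that reports fat mass and recent feeding to the brain.

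The values that made the division are given as a description. Lpl had 21591 reads in WT1, 20672 in WT3, 21480 in KO2 and 23409 in KO4, and 10023 in WT2, 14768 in WT4, 11670 in KO1 and 12713 in KO3. The nearest library inside the threshold was WT3 and the nearest outside it was WT4. Scaled for library size, as counts per 1000000 reads (CPM), Lpl stood between 7373 and 8347 in the Lpl-high libraries and between 3989 and 5387 in the Lpl-low libraries. Depth did not separate the groups: the totals ran from 2735078 to 2873457 reads in the Lpl-high and from 2617755 to 2780705 in the Lpl-low libraries. Adipocyte markers were present in both, with a summed level over 15 genes of 25720 to 27650 CPM in the Lpl-high and 26310 to 32220 CPM in the Lpl-low libraries.

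**Figure D1:**
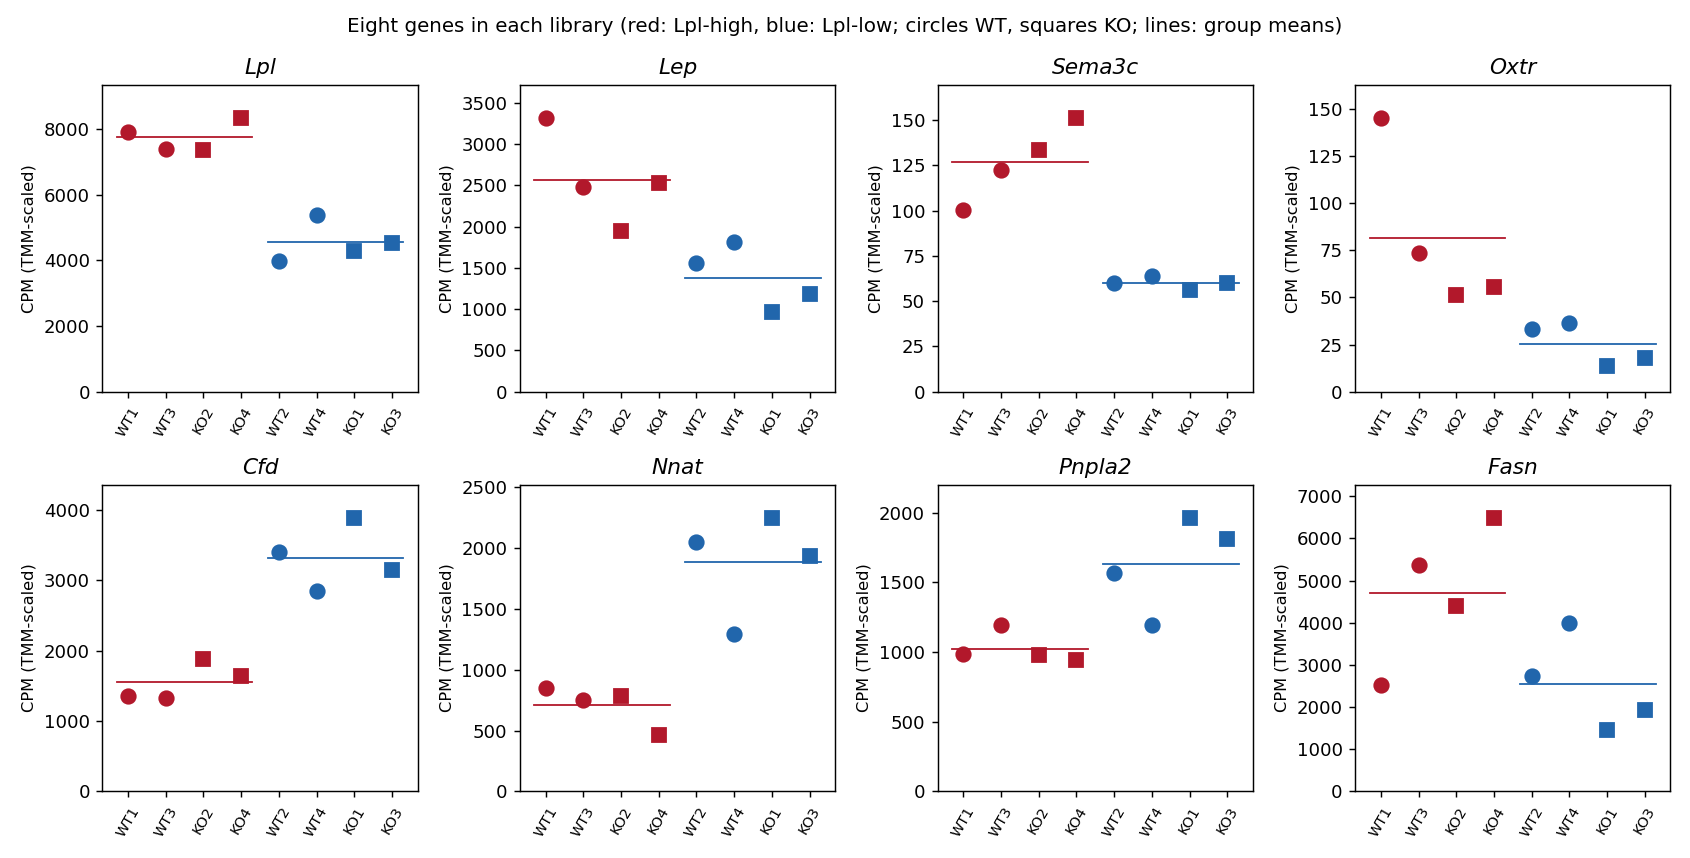
Level (CPM, vertical axis from 0) of Lpl, which made the groups, and of 7 other genes in each of the 8 libraries; circles are WT, squares KO, and lines the means of 4 libraries. Lep, Sema3c and Oxtr lie above the Lpl-low libraries in all 4 Lpl-high libraries, Cfd, Nnat and Pnpla2 lie below them, and Fasn overlaps.

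Beyond Lpl, the Lpl-high libraries held more leptin, semaphorin 3C and oxytocin receptor mRNA, more of the antilipolytic receptors Npr3 and Ptger3, and less complement factor D, neuronatin, adipose triglyceride lipase and C/EBP alpha mRNA. With a correction for transcript GC content and length, described below, Npr3, Ptger3, neuronatin, adipose triglyceride lipase and C/EBP alpha kept their direction but were not called. With genotype as a term, 181 of 14555 other genes were higher in the Lpl-high libraries, or 1.24%, and 109 were lower, or 0.749% (edgeR's quasi-likelihood test, Benjamini-Hochberg adjusted p under 0.05). Of these 290 genes, 266 did not overlap between the groups, against 11.7% of all genes tested (6.02% wholly above and 5.68% wholly below). The 290 are 1.99% of the genes tested, and 2823 genes, or 19.4%, had an unadjusted p under 0.05. Because the groups were chosen on these same libraries, the tests describe what varied together with Lpl and are not a test of a planned contrast.

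The number of genes called depended on single libraries. Without WT2, the library with the fewest Lpl reads, 7 genes were higher and 3 lower, and without KO4, the library with the most, 27 and 8. Without WT1 there were 36 and 17, without KO3 57 and 36, without KO2 65 and 23, without KO1 83 and 31, and without WT3 120 and 79. Without WT4, the Lpl-low library nearest the threshold, the counts were larger, at 288 and 187. Of the 60 called genes named in the text, all 60 kept their direction without each library in turn, while between 2 (without WT2) and 54 (without WT4) remained called. The kept direction was nearly fixed in advance, as 58 of the 60 did not overlap between the groups.

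Base composition moved with the groups. The median GC content of the longest transcript was 42.2% in the genes called higher, 55.5% in those called lower and 49.7% in all genes tested, and the median lengths were 4496, 2118 and 3149 bases. Weighted by CPM, the mean GC content of a library was 48.8% to 49.1% in the Lpl-high and 49.4% to 49.7% in the Lpl-low libraries, without overlap. In the eighth of genes with the lowest GC content, the median log2 fold change was 0.26 within all 8 libraries, 0.28 within WT and 0.24 within KO; in the eighth with the highest it was -0.18 in each. A second fit, chosen after this was seen, took a smooth trend of GC content and length out of each library before the test. It called 22 of 13931 genes higher (0.158%) and 19 lower (0.136%), and all 176 higher and 106 lower genes that have a GC value kept their direction. The first fit is given throughout, and the second for the genes described in most detail and for most gene lists. A list's count of called genes is read against 1.24% higher and 0.749% lower of all genes in the first fit, and 0.158% and 0.136% in the second.

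**Figure D2:**
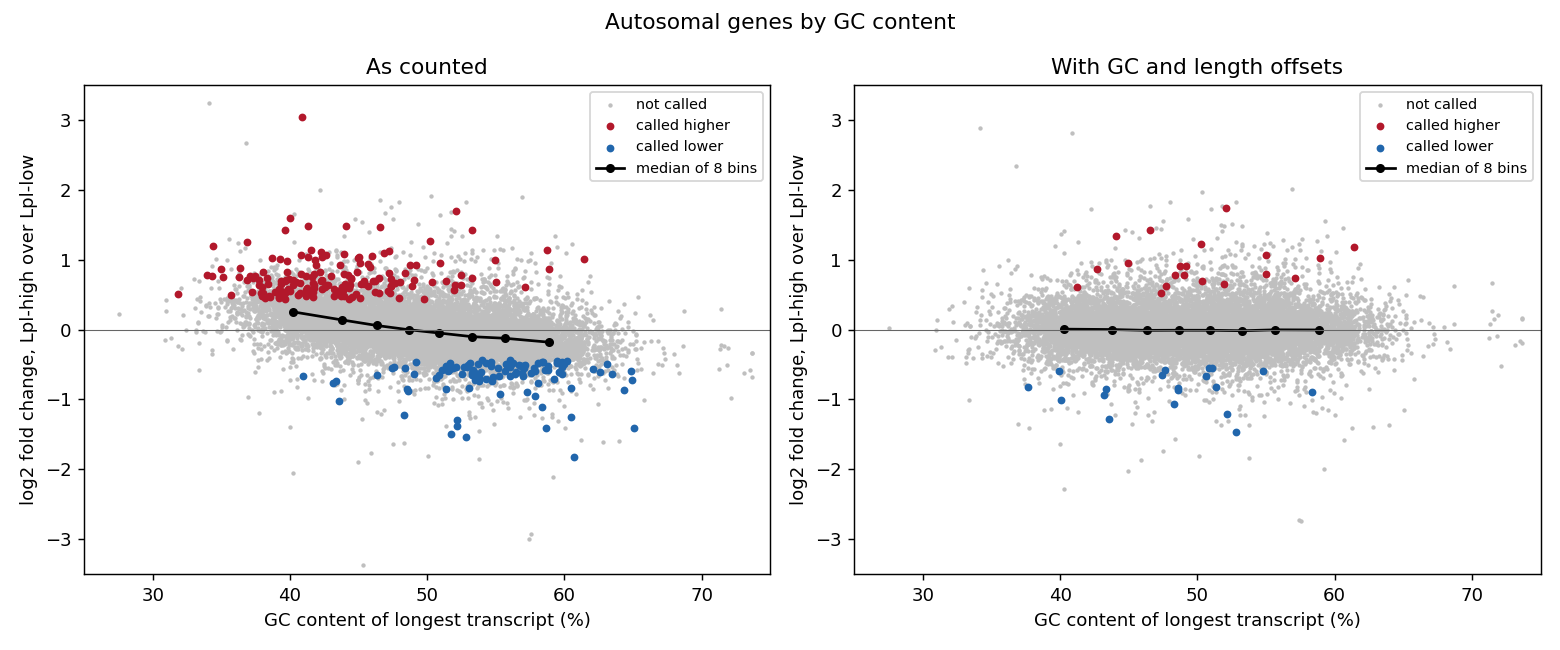
GC content (%, horizontal) against the log2 fold change of Lpl-high over Lpl-low libraries (vertical) for autosomal genes, from the counts as deposited on the left and with GC and length offsets on the right; red and blue points are called genes and the black line joins medians of 8 bins. On the left the bin medians fall from 0.26 to -0.18, and on the right they lie near 0.

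Leptin and complement factor D, both secreted by adipocytes, differed between the groups without overlap, in opposite directions. Lep is a marker given for this comparison. Lep had 3319 CPM in WT1, 2485 in WT3, 1949 in KO2 and 2523 in KO4, against 1553 in WT2, 1815 in WT4, 971 in KO1 and 1183 in KO3. Every Lpl-high library was above every Lpl-low library, though KO2 and WT4 lay near each other. Among the Lpl-low libraries both KO values were below both WT values. The log2 fold change was 0.92 ± 0.14 (SE, n = 4 and 4; edgeR adjusted p = 0.0121), or 1.89-fold, and 0.91 ± 0.14 with GC and length offsets (edgeR adjusted p = 0.0211). Without WT2 its adjusted p was 0.0693.

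Cfd, which encodes complement factor D or adipsin, the protease that starts the alternative pathway of complement, had 1354 CPM in WT1, 1326 in WT3, 1876 in KO2 and 1645 in KO4. In the Lpl-low libraries it had 3397 CPM in WT2, 2850 in WT4, 3893 in KO1 and 3154 in KO3. The groups were far apart for their spread: Cfd was 2.16-fold higher in the Lpl-low libraries, a log2 fold change of -1.11 ± 0.13 (SE; edgeR adjusted p = 0.00187) and of -0.89 ± 0.12 with GC and length offsets (edgeR adjusted p = 0.0136). Cfd and Sema3c were called in each of the 21 alternative fits.

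Sema3c, chosen here after its values were seen, encodes a secreted guidance molecule of the semaphorin family. It had 100.2 CPM in WT1, 122 in WT3, 134 in KO2 and 151 in KO4, and the Lpl-low libraries lay close together, at 59.7 in WT2, 63.8 in WT4, 55.9 in KO1 and 60.1 in KO3. Its log2 fold change was 1.07 ± 0.12 (SE; edgeR adjusted p = 0.00187) and 0.87 ± 0.12 with GC and length offsets (edgeR adjusted p = 0.0136).

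The sequences upstream of these 3 genes are shown because their transcripts separated the groups in nearly all fits while the genes differ widely in transcript composition, with a transcript GC content of 48.7% in Lep, 42.7% in Sema3c and 58.4% in Cfd. Each line gives the 250 bases before the annotated start on the gene's strand, from RefSeq (GRCm38.p6). Capitals mark matches on either strand to 4 motifs. The first was the TATA box, searched as TATAAA. The next, which Sp1 proteins are known to bind, was searched as GGGCGG and is called the Sp1 box. The CCAAT box was searched under the letters of its name. The last, a core known to be bound by C/EBP proteins, was searched as TTGCNNAA; none of the matches shown overlap.
Lep (chr6:29059971-29060220, plus strand): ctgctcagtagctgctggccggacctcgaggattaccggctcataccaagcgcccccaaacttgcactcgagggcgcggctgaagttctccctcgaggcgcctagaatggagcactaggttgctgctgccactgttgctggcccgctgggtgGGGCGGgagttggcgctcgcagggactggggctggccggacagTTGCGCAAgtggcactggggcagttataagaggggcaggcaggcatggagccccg
Sema3c (chr5:17574566-17574815, plus strand): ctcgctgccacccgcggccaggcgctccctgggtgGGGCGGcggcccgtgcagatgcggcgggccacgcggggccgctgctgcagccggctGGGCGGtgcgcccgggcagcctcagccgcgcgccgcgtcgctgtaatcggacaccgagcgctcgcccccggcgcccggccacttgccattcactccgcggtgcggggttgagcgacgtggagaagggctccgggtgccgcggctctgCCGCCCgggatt
Cfd (chr10:79890603-79890852, plus strand): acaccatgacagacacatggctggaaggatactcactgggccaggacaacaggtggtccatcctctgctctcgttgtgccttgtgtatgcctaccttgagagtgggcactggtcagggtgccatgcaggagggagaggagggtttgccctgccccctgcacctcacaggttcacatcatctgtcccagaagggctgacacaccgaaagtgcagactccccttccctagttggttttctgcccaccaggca
The Lep window holds 1 Sp1 box and 1 C/EBP core, the latter from base -55 to base -48 counted back from the start, the Sema3c window holds the Sp1 box 3 times, and the Cfd window holds none of the 4 motifs. Of all 27025 upstream windows of this length, 13% hold the TATA box, 32.9% the Sp1 box, 34.5% the CCAAT box and 9.55% the C/EBP core. Among the 9084 genes tested that have a window, the Sp1 box is more common, at 58.5%, and the C/EBP core stands at 7.35%. Windows were matched for 127 of the 181 genes called higher, of which 53.5% hold the Sp1 box and 7.87% the C/EBP core, and for 74 of the 109 called lower, with 41.9% and 9.46%.

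The 10 genes with the largest values higher in the Lpl-high libraries were led by a choline carrier and included the oxytocin receptor and a complement component. Slc5a7, which encodes the high-affinity choline transporter, had 161, 158, 78 and 181 reads in WT1, WT3, KO2 and KO4 and 10, 38, 6 and 15 in WT2, WT4, KO1 and KO3. It was 8.23-fold higher, with a log2 fold change of 3.04 ± 0.49 (SE; edgeR adjusted p = 0.0454) and one of 2.81 ± 0.48 with GC and length offsets (edgeR adjusted p = 0.0928). Oxtr, the receptor for oxytocin, had 145, 73.6, 51.2 and 55.6 CPM in WT1, WT3, KO2 and KO4, and 33, 36.5, 13.6 and 17.8 CPM in WT2, WT4, KO1 and KO3. Both KO libraries were below both WT libraries in each group, although the genotype value did not pass the test (log2 fold change between KO and WT -1.08; edgeR adjusted p = 0.325). The Lpl-high libraries were 3.25-fold higher (log2 fold change 1.70 ± 0.20, SE; edgeR adjusted p = 0.00936; 1.74 ± 0.21 and 0.0202 with GC and length offsets).

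C6, the complement component that joins the membrane attack complex, had 76.4, 51.1, 67.3 and 66.3 CPM in the Lpl-high libraries WT1, WT3, KO2 and KO4. In WT2, WT4, KO1 and KO3 it had 22.7, 34.3, 22.8 and 15.3 CPM. The groups did not overlap, the difference was 2.77-fold (log2 fold change 1.47 ± 0.20, SE; edgeR adjusted p = 0.0121), and it was called with GC and length offsets too (1.42 ± 0.20, edgeR adjusted p = 0.0239). The other 7 were Folh1, which encodes a glutamate carboxypeptidase, at a log2 fold change of 1.59; Eya4, a transcriptional coactivator, at 1.48; Slc16a12, a carrier of the monocarboxylate transporter family, at 1.48; and Nexn, an actin-binding protein, at 1.42. Unc79, a subunit of a sodium leak channel, had 1.27, Aspn, a small leucine-rich matrix proteoglycan, 1.19, and Lhx8, a LIM homeobox factor, 1.17. Slc16a12 (1.34 ± 0.22, SE; edgeR adjusted p = 0.042) and Unc79 (1.22 ± 0.22; 0.0275) were also called with GC and length offsets, while Folh1, Eya4, Nexn and Aspn had edgeR adjusted p-values of 0.112, 0.106, 0.0621 and 0.0621 there. Lhx8 was not in that fit. Aspn lies within Cenpp, so reads of the pair could not be assigned without strand.

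The largest values lower in the Lpl-high libraries were led by genes of low counts. Prtn3, a serine protease of myeloid granules, had 8, 4, 12 and 19 reads in WT1, WT3, KO2 and KO4 and 35, 19, 60 and 29 in WT2, WT4, KO1 and KO3, a log2 fold change of -1.82 ± 0.36 (SE; edgeR adjusted p = 0.0253); in CPM the groups just failed to meet, at 6.78 in KO4 and 6.93 in WT4. Cytl1, a small secreted protein, stood at -1.49 and Spata5l1, an ATPase, at -1.41. Ntrk3, a neurotrophin receptor, had -1.02, Slc22a17, a lipocalin receptor, -0.96, and Phpt1, a phosphohistidine phosphatase, -0.92. With GC and length offsets Ntrk3 was called (-1.29 ± 0.22, SE; edgeR adjusted p = 0.0275), and the edgeR adjusted p-values of Prtn3, Cytl1, Spata5l1, Slc22a17 and Phpt1 ran from 0.0556 to 0.148. Prtn3 and Phpt1 each overlap another counted gene.

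Nnat and Blcap, of which Nnat lies inside Blcap, had the largest differences among the 10 most abundant called genes. Nnat encodes neuronatin, a small membrane protein of the endoplasmic reticulum that is imprinted. It had 851 CPM in WT1, 753 in WT3, 788 in KO2 and 462 in KO4, and 2047 in WT2, 1294 in WT4, 2252 in KO1 and 1937 in KO3. The Lpl-low libraries were all higher, by 2.64-fold (log2 fold change -1.40 ± 0.23, SE; edgeR adjusted p = 0.0211; -1.20 ± 0.23 and 0.0769 with GC and length offsets). Blcap had a log2 fold change of -1.30 (-1.21 with the offsets, edgeR adjusted p = 0.0418). The pair had 28273 and 31536 reads in all, and Blcap was a little above Nnat in every library. Nnat and Blcap had 2317 and 2651 reads in WT1, 5143 and 5601 in WT2, 6121 and 6610 in KO1, and 1296 and 1593 in KO4. The Blcap value is therefore not read as a result apart from Nnat, and how many reads they share was not tested.

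**Figure D3:**
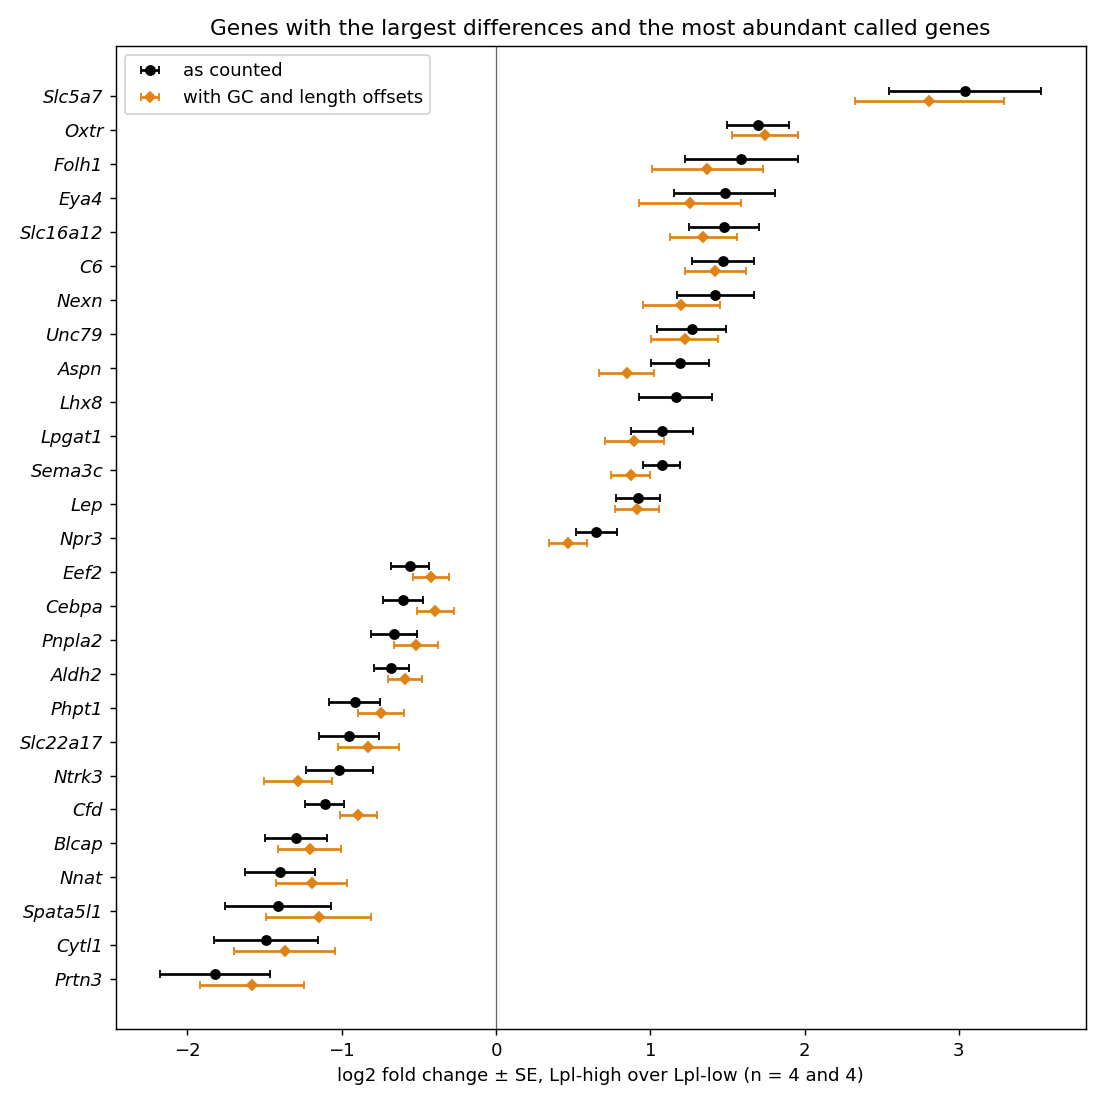
Log2 fold change of Lpl-high over Lpl-low libraries with its standard error (horizontal; 4 libraries a group) for genes among those with the largest differences, the most abundant called genes and Sema3c. Black circles are the fit to the counts as deposited and orange diamonds the fit with GC and length offsets; values run from -1.82 in Prtn3 to 3.04 in Slc5a7, and each gene but Lhx8, which has no value with offsets, keeps its side of 0 in both fits.

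Of the genes of lipolysis and its control, 2 receptors that hold lipolysis back were called higher in the Lpl-high libraries. The lipase that starts it was called lower. These calls were made in the first fit only. Npr3, the clearance receptor that removes the lipolytic natriuretic peptides, had 2016, 1811, 1924 and 2148 CPM in WT1, WT3, KO2 and KO4, and 1137, 1592, 1178 and 1142 in WT2, WT4, KO1 and KO3. It was 1.57-fold higher in the Lpl-high libraries (log2 fold change 0.65 ± 0.13, SE; edgeR adjusted p = 0.0275; 0.47 ± 0.12 and 0.112 with GC and length offsets). Ptger3, the antilipolytic prostaglandin E receptor EP3, was 2.18-fold higher, with 289 to 377 CPM in the Lpl-high and 116 to 230.2 CPM in the Lpl-low libraries (edgeR adjusted p = 0.0278; 0.0637 with GC and length offsets). Pnpla2, which encodes adipose triglyceride lipase, was lower, with 984, 1192, 982 and 944 CPM in WT1, WT3, KO2 and KO4 against 1565, 1197, 1966 and 1812 in WT2, WT4, KO1 and KO3. WT3 and WT4 nearly met, and the log2 fold change was -0.66 ± 0.15 (SE; edgeR adjusted p = 0.0377; -0.52 ± 0.14 and 0.124 with GC and length offsets). Lipe, which encodes hormone-sensitive lipase, the next enzyme of the pathway, had -0.27 ± 0.12 and Adrb3, the beta-3 adrenergic receptor, -0.54 ± 0.21 (edgeR adjusted p = 0.209 and 0.197). Of 19 tested genes of lipolysis and its control, 2 were called higher and 1 lower, against 1.24% and 0.749% of all genes, with a median of -0.20, where all autosomal genes have -0.01. With the offsets 0 of them were called and the median was -0.14.

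A list of 13 fat expansion genes, of which 11 were tested, was chosen with earlier results of these data known. It includes Lep, a marker given for this comparison, so its share of called genes is only a description. Lep, Npr3, Ptger3 and Mest were called higher and Nnat lower, or 4 and 1 of the 11, against 1.24% and 0.749% of all genes. With GC and length offsets 1 was called higher, Lep, and 0 lower. Of the 11 values 7 were above 0, with a median of 0.20 (0.18 with the offsets). Mest, an imprinted gene of the alpha/beta hydrolase family, had 760.2, 635, 554 and 719 CPM in WT1, WT3, KO2 and KO4, and 466, 557, 254 and 381 in WT2, WT4, KO1 and KO3. Its groups overlapped by a small margin, between KO2 and WT4, but not within a genotype, and its log2 fold change was 0.72 ± 0.17 (SE; edgeR adjusted p = 0.0445; 0.70 ± 0.17 and 0.0937 with GC and length offsets). Copg2, which overlaps Mest, had 0.79 ± 0.14 (0.66 and an edgeR adjusted p of 0.0556 with the offsets).

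Among 25 other genes of lipoprotein hydrolysis and fatty acid uptake, 1 was called. Vldlr, the very low density lipoprotein receptor, which binds triglyceride-rich particles beside lipoprotein lipase, had 154, 147, 107 and 122 CPM in WT1, WT3, KO2 and KO4 and 80 to 90.8 CPM in the Lpl-low libraries, a log2 fold change of 0.61 ± 0.11 (SE; edgeR adjusted p = 0.015; 0.40 ± 0.11 and 0.107 with GC and length offsets). Cd36, the fatty acid translocase, had 0.33 ± 0.12 (SE; edgeR adjusted p = 0.135) and 0.05 ± 0.11 with the offsets. Cav2, the caveolin-1 partner caveolin-2, was the called gene of the lipid droplet and caveola list, at 0.77 ± 0.13 (SE; edgeR adjusted p = 0.0147; 0.49 ± 0.12 and 0.0818 with the offsets). Its reads can be shared with a predicted gene that it overlaps.

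Lipid synthesis genes did not pass the test. Of 25 tested genes of de novo lipogenesis, 0 were called in either fit, with 13 values above 0 and a median of 0.09 (0.08 with the offsets), and the list's median was -0.21 within WT and 0.31 within KO. Fasn, fatty acid synthase, had 2527, 5362, 4397 and 6493 CPM in WT1, WT3, KO2 and KO4 and 2728, 4003, 1466 and 1940 in WT2, WT4, KO1 and KO3. WT1 was below 2 of the Lpl-low libraries, and the log2 fold change was 0.95 ± 0.44 (SE; edgeR adjusted p = 0.309). Me1, the malic enzyme that supplies NADPH, had 0.83 ± 0.20 without overlap, and Elovl6, a fatty acid elongase, 0.89 ± 0.26 (edgeR adjusted p = 0.065 and 0.113). Of the triglyceride synthesis genes 0 of 17 were called in either fit, with a median of 0.00 (-0.06 with the offsets); Dgat2, which adds the last acyl chain, had 0.48 ± 0.14, and Pck1, the cytosolic PEP carboxykinase that feeds glycerol synthesis, had -1.23 ± 0.28, both without overlap (edgeR adjusted p = 0.0835 and 0.0671).

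Cholesterol synthesis genes lay almost all on one side. Of 22 tested, 1 was called, and 20 had values above 0 with a median of 0.37, while 48.7% of all autosomal genes were above 0. Of the 22, 0 lay wholly above the Lpl-low libraries, against 6.02% of all genes. With GC and length offsets 18 of 21 values were above 0, with a median of 0.46. Hsd17b7, Mvd, Idi1, Sqle and Cyp51, enzymes from the mevalonate stage to the sterol ring, had values of 0.97, 0.95, 0.87, 0.76 and 0.72 with edgeR adjusted p-values of 0.0506 to 0.134. The list's median was 0.09 within WT and 0.66 within KO, and between 0.21 and 0.49 with a library left out; the difference between genotypes was called in 0 of the 14555 genes.

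Genes of mitochondrial fuel use mostly had small values below 0. Of 27 tested fatty acid oxidation genes 24 had values below 0, with a median of -0.21 in both fits; 7 of the 27 lay wholly below the Lpl-low libraries (25.9%, against 5.68% of all genes). Called lower were Eci1, an enoyl-CoA isomerase, Acadvl, the very long chain acyl-CoA dehydrogenase, and Etfb, a subunit of the electron transfer flavoprotein, with log2 fold changes of -0.74 ± 0.15, -0.49 ± 0.10 and -0.50 ± 0.12 (SE; edgeR adjusted p = 0.0271, 0.0286 and 0.0484). With GC and length offsets their values were -0.61, -0.38 and -0.31 and 0 of the 3 were called. Eci1 had 60.9, 81.1, 59.7 and 65.6 CPM in WT1, WT3, KO2 and KO4, and 108, 87.6, 111 and 143 in WT2, WT4, KO1 and KO3.

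Branched-chain amino acid catabolism had 5 called members of 19 tested, all 5 lower, against 0.749% of all genes; with GC and length offsets 1 of them was called. Among them were Bcat2, the mitochondrial aminotransferase of the first step (-0.71 ± 0.13), Bckdha, a subunit of the dehydrogenase of the second (-0.59 ± 0.11), Ivd, the isovaleryl-CoA dehydrogenase of leucine breakdown (-0.59 ± 0.10), and Pccb, a propionyl-CoA carboxylase subunit (-0.52 ± 0.11). Their edgeR adjusted p-values were 0.015, 0.0182, 0.0149 and 0.0274, and these 4 had no overlap between groups. With the offsets Bcat2, Bckdha and Pccb had edgeR adjusted p-values of 0.0617, 0.0769 and 0.0637. Ivd had 116, 135, 122 and 122 CPM in WT1, WT3, KO2 and KO4 and 184, 188, 192 and 179 CPM in WT2, WT4, KO1 and KO3, and was the member called with the offsets (-0.55 ± 0.09, SE; edgeR adjusted p = 0.0275). The list's median was -0.17 with 17 of 19 values below 0, and -0.35 with 18 below 0 with the offsets. The median transcript GC content was 46.8% in the list and 49.7% in all genes tested. The 4 called members named here stood above both, at 54.3% in Bcat2, 57.9% in Bckdha, 51.05% in Ivd and 51.3% in Pccb. The part of GC content in these calls was not tested beyond the offsets. Aldh2, the mitochondrial aldehyde dehydrogenase, had 468, 518, 462 and 447 CPM in WT1, WT3, KO2 and KO4 and 844, 674, 768 and 744 in WT2, WT4, KO1 and KO3 (-0.68 ± 0.11, SE; edgeR adjusted p = 0.0144; -0.59 ± 0.11 and 0.0368 with the offsets).

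The nuclear and mitochondrial genes of the respiratory chain stood on opposite sides in the first fit. Of 78 nuclear-encoded subunits 71 had values below 0, with a median of -0.26 (-0.19 with GC and length offsets), and 27 lay wholly below the Lpl-low libraries (34.6%, against 5.68% of all genes). Ndufs7 and Ndufb10 of complex I and Cox4i1 of cytochrome oxidase were called lower, at -0.60 ± 0.12, -0.43 ± 0.10 and -0.47 ± 0.10 (SE; edgeR adjusted p = 0.0253, 0.0456 and 0.0323), and 0 of the 3 with the offsets; Cox4i1 overlaps a predicted gene that takes many reads. All 13 mRNAs encoded in mitochondrial DNA were above 0, with a median of 0.26, and mt-Atp8, an ATP synthase subunit whose gene overlaps mt-Atp6, was called higher (0.50 ± 0.12, SE; edgeR adjusted p = 0.0484; 0.29 and 0.264 with the offsets). Their median GC content is 37.1%, and with the offsets 8 of 13 were above 0 with a median of 0.06. The TCA cycle list had 21 of 26 values below 0, a median of -0.22 (-0.20 with the offsets) and 1 called gene, Pdk2, a kinase that inhibits pyruvate dehydrogenase (-0.62 ± 0.14, SE; edgeR adjusted p = 0.038; -0.47 and 0.145 with the offsets).

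Thermogenic genes mostly had values below 0, and 1 was called. Of 17 tested, 13 had values below 0, with a median of -0.19 (-0.14 and 0 called with the offsets), which was -0.01 within WT and -0.50 within KO. Prdm16, the transcriptional regulator of beige and brown fat cells, was called, with 58, 69.7, 60.8 and 44.9 CPM in WT1, WT3, KO2 and KO4 and 91.5, 84.3, 89 and 83.9 in WT2, WT4, KO1 and KO3 (log2 fold change -0.58 ± 0.12, SE; edgeR adjusted p = 0.0286; -0.57 ± 0.12 and 0.0621 with GC and length offsets). Cidea, a lipid droplet protein, and Cox8b, a cytochrome oxidase subunit, both typical of brown fat, had -0.79 ± 0.28 and -1.04 ± 0.37 (edgeR adjusted p = 0.158 and 0.169). Cox8b stood at 20.4 CPM in WT3 and at 7.71 to 9.27 CPM in the other 3 Lpl-high libraries.

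**Figure D4:**
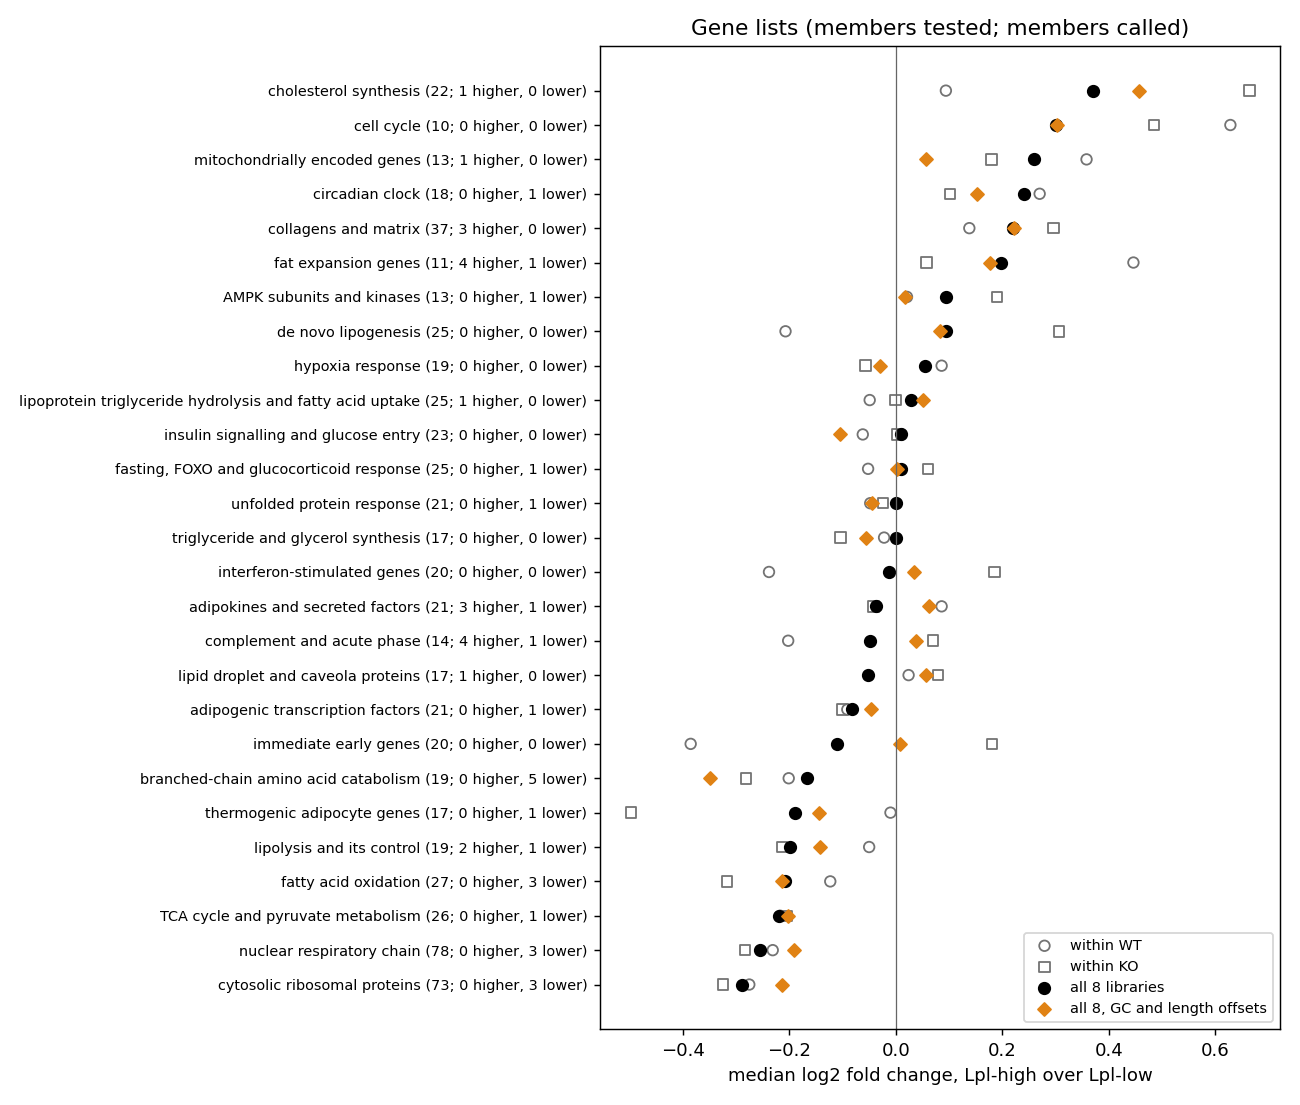
Median log2 fold change of Lpl-high over Lpl-low libraries (horizontal) for each gene list, over all 8 libraries (black), with GC and length offsets (orange) and within WT or KO (open circles and squares); labels give members tested and members called. Ribosomal, respiratory chain, TCA cycle and fatty acid oxidation genes lie between -0.29 and -0.21, and cholesterol synthesis lies at 0.37.

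Cytosolic ribosomal protein genes had the lowest median of the pathway lists. Of 73 tested, 71 had values below 0, with a median of -0.29 (-0.21 with GC and length offsets), and 17 lay wholly below the Lpl-low libraries (23.3%, against 5.68% of all genes). Rps14, Rpl11 and Rps2 were called lower in the first fit, at -0.51 ± 0.11, -0.53 ± 0.13 and -0.51 ± 0.12 (SE; edgeR adjusted p = 0.0279, 0.0458 and 0.0464), and 0 of the 3 in the second. Eef2, the elongation factor that moves the ribosome along, had 898, 856, 778 and 757 CPM in WT1, WT3, KO2 and KO4 and 1396, 1052, 1254 and 1125 in WT2, WT4, KO1 and KO3 (-0.56 ± 0.12, SE; edgeR adjusted p = 0.0331; -0.42 ± 0.12 and 0.125 with the offsets). Ribosomal and many respiratory chain genes have processed copies in the genome, and their counts are uncertain for that reason.

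Regulators of the fat cell included a few called genes. Cebpa, which encodes C/EBP alpha, a factor that maintains the mature adipocyte, was lower, at 646, 713, 621 and 665 CPM in WT1, WT3, KO2 and KO4 and 1183, 839, 920 and 1079 in WT2, WT4, KO1 and KO3 (log2 fold change -0.60 ± 0.13, SE; edgeR adjusted p = 0.0292). Its transcript is rich in GC, at 62.6%, and with the offsets the value was -0.39 ± 0.12 (edgeR adjusted p = 0.166). It was the 1 called gene of 21 adipogenic factors, whose median was -0.08 (-0.05 with the offsets). Hsd11b1, which regenerates active glucocorticoid inside the fat cell, was lower in both fits (-0.74 ± 0.12, SE; edgeR adjusted p = 0.0144; -0.85 ± 0.12 and 0.0136 with the offsets), with 59.9 to 96.2 CPM in the Lpl-high and 110.4 to 130.1 CPM in the Lpl-low libraries. Stk11, the kinase LKB1 that activates AMPK, and Xbp1, a factor of the unfolded protein response, had -0.47 ± 0.11 and -0.51 ± 0.11 (edgeR adjusted p = 0.0377 and 0.0333), and with the offsets neither was called (0.192 and 0.0937). Each was the 1 called gene of its list. Of 13 AMPK subunits and kinases 7 were above 0, with a median of 0.09 (0.02 with the offsets). Of 21 unfolded protein response genes 11 were above 0, with a median of 0.00 (-0.045 with the offsets). Of the insulin signalling genes 0 of 23 were called in either fit, with a median of 0.01 (-0.10 with the offsets); Irs1 and Irs2, the insulin receptor substrates, had -0.50 ± 0.13 and -0.53 ± 0.14 (edgeR adjusted p = 0.0506 and 0.0609). Lpgat1, an acyltransferase of phospholipid synthesis, was 2.11-fold higher, at 1088, 1061, 921 and 1428 CPM in WT1, WT3, KO2 and KO4 and 503, 774, 394 and 493 in WT2, WT4, KO1 and KO3 (edgeR adjusted p = 0.0278; 0.0788 with the offsets).

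Among other secreted products, Igf1 and Orm1 were called higher. Igf1, insulin-like growth factor 1, stood at 236 to 315 CPM in the Lpl-high and 172 to 196 CPM in the Lpl-low libraries (log2 fold change 0.61 ± 0.11, SE; edgeR adjusted p = 0.0169), but its transcript GC content is 38% and the value with GC and length offsets was 0.26 ± 0.12 (edgeR adjusted p = 0.364). Orm1, an acute phase glycoprotein, was called in both fits (0.71 ± 0.15, SE; edgeR adjusted p = 0.0276; 0.78 ± 0.15 and 0.0388). Adipoq, which encodes the adipokine adiponectin, was not called (-0.41 ± 0.15, SE; edgeR adjusted p = 0.138), with -0.09 within WT and -0.72 within KO. The called members of the complement list included Cfd, lower, and C6, Orm1 and Cd55, higher; Cd55, which restrains complement, had 0.54 ± 0.13 (SE; edgeR adjusted p = 0.0429) and was not called with the offsets.

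Of 37 collagen and matrix genes 29 had values above 0, with a median of 0.22 in both fits, and 3 were called higher (1 with the offsets). Lum, the proteoglycan lumican, had 126, 80.8, 90.3 and 93.4 CPM in WT1, WT3, KO2 and KO4 and 65.3, 50.3, 53.3 and 37 in WT2, WT4, KO1 and KO3 (log2 fold change 0.93 ± 0.16, SE; edgeR adjusted p = 0.015; 0.77 ± 0.16 and 0.0621 with the offsets). Col16a1, a fibril-associated collagen, was called in both fits (1.01 ± 0.19, SE; edgeR adjusted p = 0.0204; 1.18 ± 0.20 and 0.0274), with a GC content of 61.4%. Postn, the matrix protein periostin, had 0.76 ± 0.17 (edgeR adjusted p = 0.0484; 0.44 with the offsets), and Sparc, which binds collagen, 0.41 ± 0.12 (edgeR adjusted p = 0.0919). Of 10 tested cell cycle genes 8 were above 0, with a median of 0.30 in both fits, and 0 were called; Mki67 and Top2a, which mark dividing cells, had 0.98 ± 0.25 and 1.14 ± 0.31 (edgeR adjusted p = 0.0562 and 0.0676).

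Markers of other tissues varied between libraries and in part with the groups. All 23 tested skeletal muscle markers had values above 0, with a median of 1.01 (0.998 with the offsets), and 0 were called; summed, they stood at 471, 683, 2401 and 4318 CPM in WT1, WT3, KO2 and KO4 and at 262, 161, 3802 and 509 CPM in WT2, WT4, KO1 and KO3. Of 25 listed muscle markers 24 were in the deposited table, and of 19 liver markers 18. Within WT, both Lpl-low libraries had lower muscle sums than both Lpl-high libraries. Within KO the groups overlapped: KO3 had the lowest sum, but KO1, also an Lpl-low library, stood above KO2. Split by genotype, muscle markers had a median log2 fold change of 1.94 in WT and 0.53 in KO. With the muscle markers as a covariate 23 genes were called higher and 48 lower. Liver markers summed to 484 to 2518 CPM in the Lpl-high and 426 to 2082 CPM in the Lpl-low libraries, and with them as a covariate 77 and 40 were called. Haemoglobin genes, the detected erythroid markers, summed to 299 to 962 and 729 to 1377 CPM, and all 4 had values below 0. Small intestine markers stood at 523 CPM in WT2 and at 1.07 to 98.9 CPM elsewhere, with 3 of 13 listed genes detected. The part of muscle and liver RNA in single genes was not tested beyond these covariates, and that of erythroid and intestinal RNA was not tested.

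Markers of the cell types of fat itself gave few calls. Endothelial, macrophage and lymphoid markers had 0 called of 15, 19 and 2 tested. Abcc9, a potassium channel subunit of pericytes, was higher (0.54 ± 0.13, SE; edgeR adjusted p = 0.0457; 0.40 and 0.155 with the offsets), alone among 12 tested markers of smooth muscle and pericytes. F3, tissue factor, a marker of a stromal population, was lower (-0.65 ± 0.15, SE; edgeR adjusted p = 0.0464; -0.68 and 0.0818 with the offsets), and Cd55 higher, among 16 progenitor and fibroblast markers. Of these 16, 10 had values above 0, with a median of 0.20 (0.09 with the offsets), which was 0.03 within WT and 0.39 within KO. The median of 0.22 in the collagen and matrix list was 0.14 within WT and 0.30 within KO. Of 7 nerve and Schwann cell markers 6 had values below 0, with a median of -0.44 (-0.42 with the offsets), and 0 were called. That median was -0.01 within WT and -1.17 within KO. Summed, nerve and Schwann cell markers stood at 676 CPM in KO1 and at 357 to 443 CPM in the other libraries. The part of these cells in other results was not tested. Of 15 adipocyte markers 12 had values below 0, with a median of -0.20 (-0.17 with the offsets); Cfd and Pnpla2 were lower and Lep higher, while Plin1, the main lipid droplet coat protein, had -0.37 ± 0.12 and no overlap (edgeR adjusted p = 0.107).

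The division was repeated within each genotype, where the libraries are of separate animals and 2 stood against 2. Within WT 0 genes were higher and 1 lower, or 0.00687% of those tested (1505, or 10.3%, at an unadjusted p under 0.05), and within KO 58 were higher (0.398%) and 43 lower (0.295%), or 0.694% (2025, or 13.9%, unadjusted). Thbd, the endothelial anticoagulant receptor thrombomodulin, was the gene called within WT, at -1.26 ± 0.16 (SE; edgeR adjusted p = 0.0215), and it had -0.46 within KO; without WT1 or WT2 there were 0 calls and without WT4 there were 4. Within KO 2 genes were called without KO4, 52 without KO1 and 173 without KO3; in these fits 1 arm is a single library, which is assumed to vary like the other groups. Across 14555 genes the log2 fold changes in the 2 genotypes had a Pearson r of 0.35, and of 0.26 with GC and length offsets, a description over genes that share their libraries. Of the 414 genes with an unadjusted p under 0.01 within WT, 87.7% had the same sign within KO, against 64.6% of all genes, and with the offsets 83.2% of 220 against 59.3%.

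**Figure D5:**
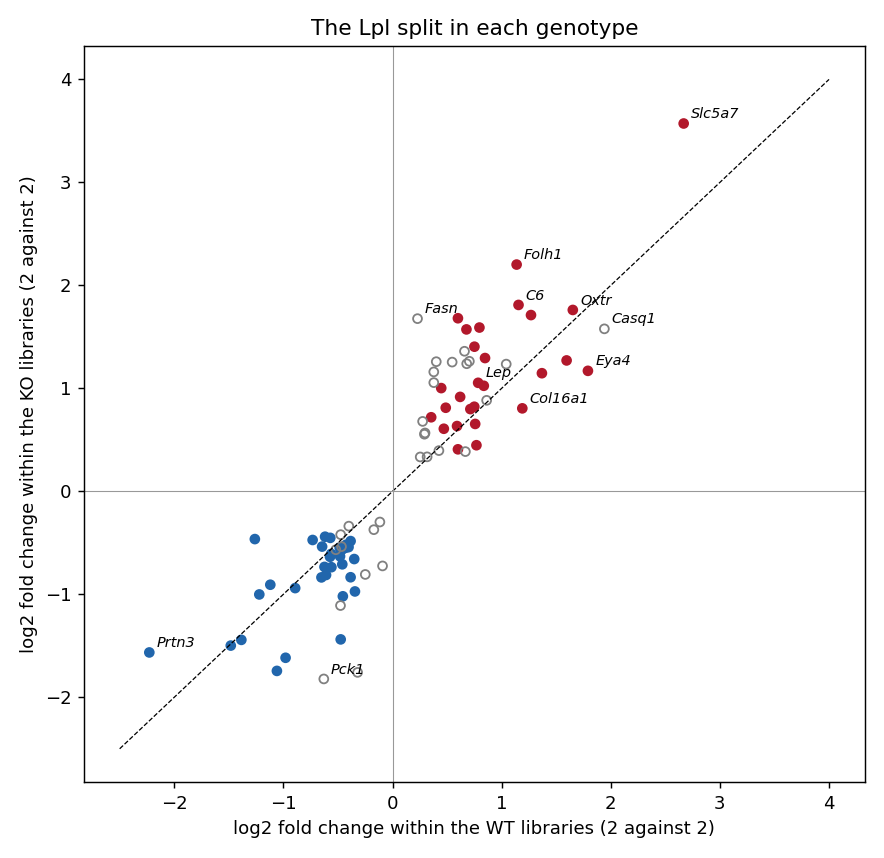
Log2 fold change of Lpl-high over Lpl-low libraries within WT (horizontal) and within KO (vertical), 2 libraries against 2 in each, for the genes named in the text; filled points were called over all 8 libraries (red higher, blue lower), open points were not, and the dashed line marks equal values. Called genes were chosen on the same 8 libraries, so their shared sign is a description. Values run from Prtn3 at -2.23 and -1.56 to Slc5a7 at 2.67 and 3.57.

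A direct test of whether the Lpl division differed between genotypes called 0 of 14555 genes with edgeR (674, or 4.63%, at an unadjusted p under 0.05, smallest adjusted p = 0.128) and 2 with DESeq2. For Fasn the log2 fold change was 0.23 within WT and 1.68 within KO (edgeR adjusted p of the difference = 0.994). Without KO3, 30 genes were called, without WT2 2 and without KO4 1.

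The genotypes were also compared with the Lpl group as a term. With the term, 0 of 14556 genes were called between KO and WT (0%; 939, or 6.45%, at an unadjusted p under 0.05, smallest adjusted p = 0.101), and without it 0 (653, or 4.49%). DESeq2 with the term called 52. Without KO3, 64 genes were called, without KO1 19 and without WT3 5. Markers of other tissues differed with the genotype label, although no gene was called. Their median log2 fold change between KO and WT was 3.05 over 23 muscle, -1.96 over 16 liver and -3.565 over 2 small intestine markers. All autosomal genes had -0.001. Summed muscle markers overlapped between genotypes, at 509 CPM in KO3 and 683 CPM in WT3. So did liver markers, at 1246 CPM in KO2 and 484 CPM in WT3. Prkd1, the targeted gene, had a log2 fold change between KO and WT of 0.06 with the term, and its Lpl division was 0.29 ± 0.13 (SE; edgeR adjusted p = 0.22), with 32.3, 33.6, 37.1 and 33.5 CPM in WT1, WT3, KO2 and KO4 and 28.7, 26.6, 26.1 and 29.9 CPM in WT2, WT4, KO1 and KO3. Eif4a2, a translation initiation helicase, was nearest the threshold among the genotype values, at 0.75, and Ighm, the heavy chain of IgM, had -0.89; their Lpl divisions were -0.21 ± 0.11 and 0.54 ± 0.14 (edgeR adjusted p = 0.325 and 0.0592).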

How the data were processed

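Poly(A) RNA of subcutaneous fat was sequenced from libraries whose kit carries no strand mark (NEBNext Ultra), per the labels' protocols. Per the submitters' processing notes, FastQC, Bowtie2 and edgeR were used with mm9, their roles and versions unstated; the read counter and the gene annotation: not given in the sources used here. Deposited by the authors were whole-number read counts for 18022 genes. They also deposited a table of log2 fold changes, log2 expression, p-values and adjusted p-values for KO against WT, which was not used here.

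Genes were tested with edgeR 4.0.16 (R 4.3.3): TMM scaling, filterByExpr by genotype, quasi-likelihood F test with a robust fit, terms for genotype and Lpl group, and Benjamini-Hochberg adjustment at 0.05 over 14555 genes without Lpl. The biological coefficient of variation was 15.7%. SE was taken as the absolute log2 fold change divided by the square root of F; CPM is TMM-scaled. The script was tested on simulated data. GC content and length came from the longest transcript in GENCODE M21, matched for 95.7% of genes. Its coordinates also gave the overlaps between genes and, where it held the gene, the chromosome. Its build differs from mm9, so overlaps in the annotation that was counted may differ. Offsets were loess trends (span 0.5) on log2 CPM (prior count 2). The 39 gene lists, the members and the division were chosen with earlier results of these data known. Named are Lep, the 10 largest called non-overlapping genes per direction, the 10 most abundant called genes, Prkd1, adipocyte markers and up to 5 members of a list with the smallest p; not every such gene is printed, and a few are not reported here. Sema3c, Copg2, Idi1, Fasn, Cox8b, Eif4a2 and Thbd were chosen after their values were seen. Genes on X and Y were tested (12 called higher, 1 lower) and are not named. Reads of overlapping genes may be shared. Alternatives used other scalings, filters, DESeq2 1.42.0, limma-voom (limma 3.58.1), covariates, a replicate block and each library left out.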

Additional observations from a re-analysis of the deposited data

Results flagged for a closer look

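Within the groups of 4, a library was set apart when the ratio of its gap from the next value to the group's range exceeded Dixon's 95% critical value; chance sets apart about 1 in 20 groups, and 5 of 178 were. Npr3 stood at 1592 CPM in WT4, against 1137 to 1178 CPM in the other Lpl-low libraries. Pnpla2 stood at 1192 CPM in WT3, against 944 to 984 CPM in the other Lpl-high libraries. Cox8b stood at 20.4 CPM in WT3, against 7.71 to 9.27 CPM. Casq1, a calcium-binding protein of muscle, stood at 11.4 CPM in KO1, against 1.19 to 2.49 CPM in the other Lpl-low libraries. Adrb3 stood at 122.6 CPM in WT1, against 267 to 284 CPM in the other Lpl-high libraries.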

How the results depend on the processing

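Counts are given as genes higher and genes lower in the Lpl-high libraries, 181 and 109 in the fit of the report. With skeletal muscle markers as a covariate they were 23 and 48, with liver markers 77 and 40, with log2 Lpl CPM as a continuous term 505 and 356, and with GC and length offsets, chosen after the data were seen, 22 and 19. With those offsets and the replicate block they were 186 and 107. Without a count filter 72 were lower. With the replicate block they were 291 and 170. With a library left out they ran from 7 to 288 and from 3 to 187. Other scalings, DESeq2 (220 and 128), limma-voom, a filter at a mean of 5 CPM and no genotype term stayed within 1.5 times for genes higher and lower. The genotype comparison with the Lpl term called 0 genes and 52 with DESeq2, 8 with the replicate block, 12 with the block and GC offsets, 1 with continuous Lpl and 0 to 64 with a library left out. The difference between genotypes called 0, 2 with DESeq2 and 0 to 30 with a library left out. Within WT 1 gene was called, 11 with DESeq2, 2 with limma-voom and 0 to 4 with a library left out; within KO 101, 169 with DESeq2 and 2 to 173. The cause of these changes was not tested. All 60 called genes named kept their direction in every fit run, and 15 remained called with GC and length offsets, 10 with the muscle covariate and 30 with the liver covariate. As 58 of the 60 did not overlap between the groups, their direction was nearly fixed in the fits that left out a library.

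Same-numbered libraries do not share an animal, and their deviations from the genotype means correlated at -0.14, -0.29, -0.19 and -0.27. Each such pair holds 1 Lpl-high and 1 Lpl-low library, and many genes differ between those groups, so these values say little on pairing. The labels give no pairing, and the block is only another fit. The difference between genotypes could not be fitted with the block. At 2617755 to 2873457 reads per library, genes with few reads, such as Prtn3, are measured with a wide error.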

Other observations

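Some gene groups outside the comparisons above had few or no called members. Of 18 clock genes 13 had values above 0, with a median of 0.24, and 1 was called; that median ran from -0.04 to 0.41 with a library left out. Of 20 tested interferon-stimulated genes 0 were called, with a median of -0.24 within WT and 0.19 within KO. Of 20 immediate early genes 0 were called, with medians of -0.39 and 0.18. Of 19 hypoxia genes 0 were called, with a median of 0.06. Apoe, the apolipoprotein made by fat and by macrophages, had -0.45 ± 0.12 (SE; edgeR adjusted p = 0.0578), Plin2, a lipid droplet coat protein, 0.43 ± 0.15 (0.139), and Fabp5, a fatty acid binding protein, 0.42 ± 0.15 (0.137).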
